A study of Homo sapiens and Mus musculus with 18 samples.

Results

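BL41, a human Burkitt lymphoma line of malignant germinal-centre B-cell type, was compared 12 h after 5 Gy of protons with sham-handled BL41 cells. The comparison was chosen by the sample labels alone. It rests on 3 proton libraries and 3 sham libraries, 6 of the 18 libraries of the series, and on all 15069 genes of the BL41 table. The other libraries were 3 BL41 libraries taken after X-rays (5 Gy, 6 MV linear accelerator) and 9 libraries of the mouse lymphoma line J3D. Cultures were resuspended 6 h ahead of irradiation. Sham cells were left out of the incubator at room temperature in the meantime. Proton-treated cells lay in the middle of a spread-out Bragg peak, the plateau of dose built from beams of several energies (129.3 to 148.2 MeV/u). The beam was scanned, and the median linear energy transfer was 3.5 keV/µm (2.9 to 7.9 keV/µm). BL41 is a single established line, and no label calls the replicates separate cultures. The p-values thus reflect only how these samples varied, and that variation may be technical.

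Ionising radiation breaks DNA, and the kinase ATM passes the signal to p53, to the cell-cycle checkpoints and to the NF-kB transcription factors. p53 raises CDKN1A, the gene of the cell-cycle inhibitor p21, and NF-kB raises chemokine, survival and feedback genes in B cells. Replication-dependent histone genes are transcribed mainly in S phase, and their mRNAs end in a stem-loop bound by SLBP rather than in a poly(A) tail. B cells present antigen on MHC class II and draw T cells by the chemokines CCL3, CCL4, CCL17 and CCL22.

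RNA sequencing values were centred log2 expression values, in which 0 is the mean of a gene within 1 replicate number. They compare libraries for 1 gene and give no level of one gene against another, and the sequencing depth is unknown. Differences are protons minus sham on this log2 scale, and n is 3 libraries in each group. ± gives the standard error of the model without the replicate number, which tends to be too small because values were centred per number. Values in a group are given in the order of replicate numbers 1 to 3. A gene passed when the Benjamini-Hochberg adjusted p of limma's moderated test, over all 15069 genes and on the 9 BL41 libraries, was under 0.05. Rose and fell are used only of such genes. In bulk RNA, fewer cells of a kind and less RNA per cell cannot be told apart. All 11 B-lymphoma markers sought were in the table, against 5 of 17 T-cell and NK-cell markers, 1 of 12 myeloid markers and 4 of 15 stromal, epithelial and erythroid markers. Of these other-cell markers LCK, a Src-family kinase gene of T cells, fell (−0.59 ± 0.13, limma adjusted p = 0.0363), and the other 9 did not pass. The part of LCK in the results was not tested.

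After protons 1027 genes passed (6.82%), of which 891 rose (5.91%) and 136 fell (0.903%). At an unadjusted p under 0.05 there were 4278. The differences were moderate. The genes that rose had a median difference of 0.464 (interquartile range 0.373 to 0.592), and 32 of them lay beyond 1. The genes that fell had a median of −0.593 (−0.835 to −0.434), and 19 lay beyond 1. The median of all 15069 genes was itself shifted by 0.12, with 0.0945, 0.148 and 0.0875 in numbers 1 to 3. Rescaling each library by its trimmed mean took that median to 0.0041 and left 343 genes, 160 higher (1.06%) and 183 lower (1.21%), so that the excess of higher genes depended on the scaling. Of the 1027 genes, 288 passed there too. List medians below are therefore given relative to the median of all genes, and counts after rescaling are given with the lists.

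The calls also depended on the model and on single libraries. With the replicate number as a block 0 genes passed (lowest adjusted p 0.0895), while 2408 higher genes (16.0%) and 421 lower genes (2.79%) had an unadjusted p under 0.05. All 1027 genes were among them and had 1 sign in all 3 numbers. With the proton and sham libraries only, 0 genes passed and 4177 had an unadjusted p under 0.05. Without proton library 1, 2 or 3 the counts were 3, 10 and 0. Without sham library 1, 2 or 3 they were 568, 460 and 298, and without X-ray library 1, 2 or 3 they were 337, 684 and 710. Every call below is therefore one that the blocked model did not keep, and in the 39 gene lists together at most 3 members passed when any 1 proton library was left out.

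**Figure D1:**
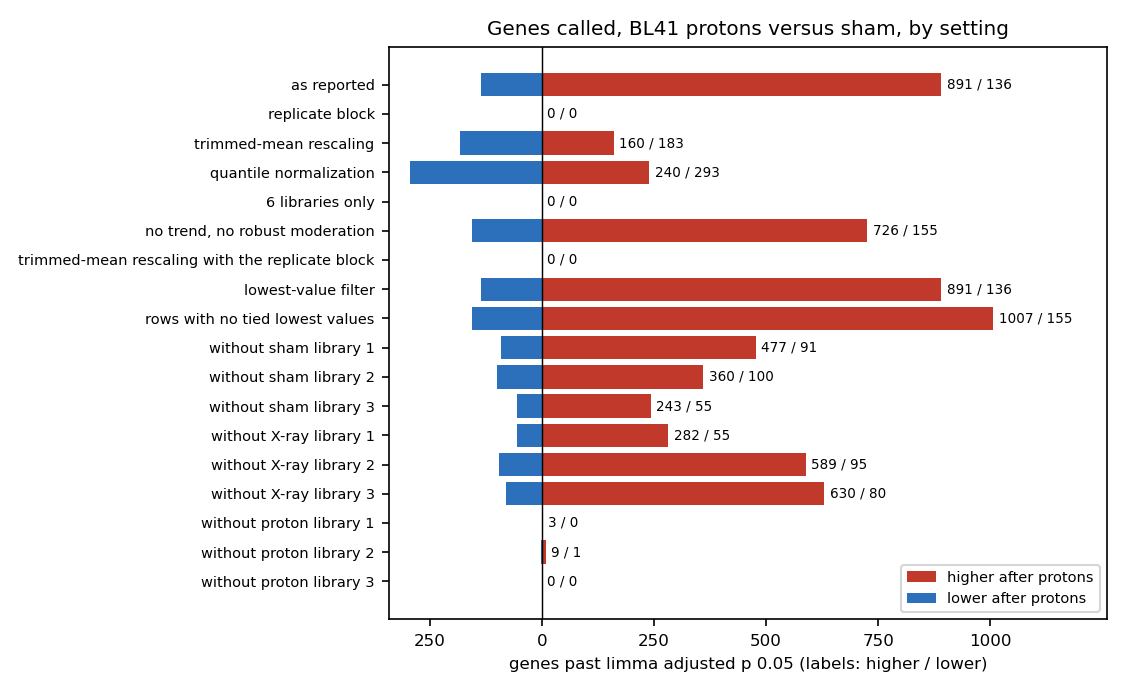
Number of genes past the limma adjusted p threshold (horizontal axis), higher after protons to the right and lower to the left of 0, as reported and under each alternative. The blocked and the 6-library fits gave 0 genes, and leaving out a proton library gave 0 to 10.

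The greatest rise was that of GNG8, which encodes a G protein gamma subunit. GNG8 stood at −1.80, −2.18 and −1.30 in the sham libraries and at 0.80, 0.93 and 0.37 after protons. The groups did not overlap, and the difference was 2.46 ± 0.30 (limma adjusted p = 0.0129). The smallest p belonged to PDE4B, which encodes a phosphodiesterase that degrades cyclic AMP. PDE4B was tight in both groups, at −0.45, −0.54 and −0.45 in sham and at 0.27, 0.29 and 0.31 after protons, a rise of 0.77 ± 0.06 (limma adjusted p = 0.00753). LRRK2, a kinase gene known from Parkinson disease, rose by 1.28 ± 0.13, from −0.92, −0.98 and −0.63 to 0.54, 0.34 and 0.43. PDCD1, which encodes the inhibitory receptor PD-1, rose by 1.42 ± 0.32. Its proton values of 0.97, 0.22 and 0.36 were spread more widely than those of LRRK2. Other genes among the smallest p were those of the GTPase-activating protein ARHGAP25 (0.72 ± 0.07), the glutathione-cleaving enzyme GGT1 (0.72 ± 0.09), the LKB1-binding protein STK11IP (0.72 ± 0.08), the actin regulator PHACTR1 (0.67 ± 0.08), the collagen-modifying enzyme PLOD1 (0.65 ± 0.08), the DNA-binding protein ARID3B (0.63 ± 0.07) and the RNA-binding protein RBM47 (0.62 ± 0.07).

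The deepest fall was that of ACY3, an aminoacylase gene, which stood at 1.34, 0.90 and 0.92 in sham and at −0.81, −0.43 and −0.24 after protons (−1.54 ± 0.23, limma adjusted p = 0.0167). FAM3B, which encodes a cytokine-like secreted protein, fell by 1.49 ± 0.26 on the log2 scale, and THRSP, a regulator of fatty acid synthesis, by 1.42 ± 0.27. The T-box factor gene TBX10 was at −1.34 ± 0.24, C8orf12 at −1.27 ± 0.22, the taste-receptor gene TAS1R3 at −1.18 ± 0.19 and the linker-histone gene H1FX at −1.16 ± 0.29. SUSD3 had the smallest p of the genes that fell, with 0.76, 0.81 and 0.89 in sham and −0.45, −0.46 and −0.45 after protons (−1.27 ± 0.16, limma adjusted p = 0.0129). Its 3 proton values were close to each other, and no sham value came near them. The Rab GTPase-activating gene TBC1D1 (−0.84 ± 0.13), C1orf167 (−0.73 ± 0.11) and DOK7, an adaptor of the muscle kinase MuSK (−0.65 ± 0.10), fell too.

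**Figure D2:**
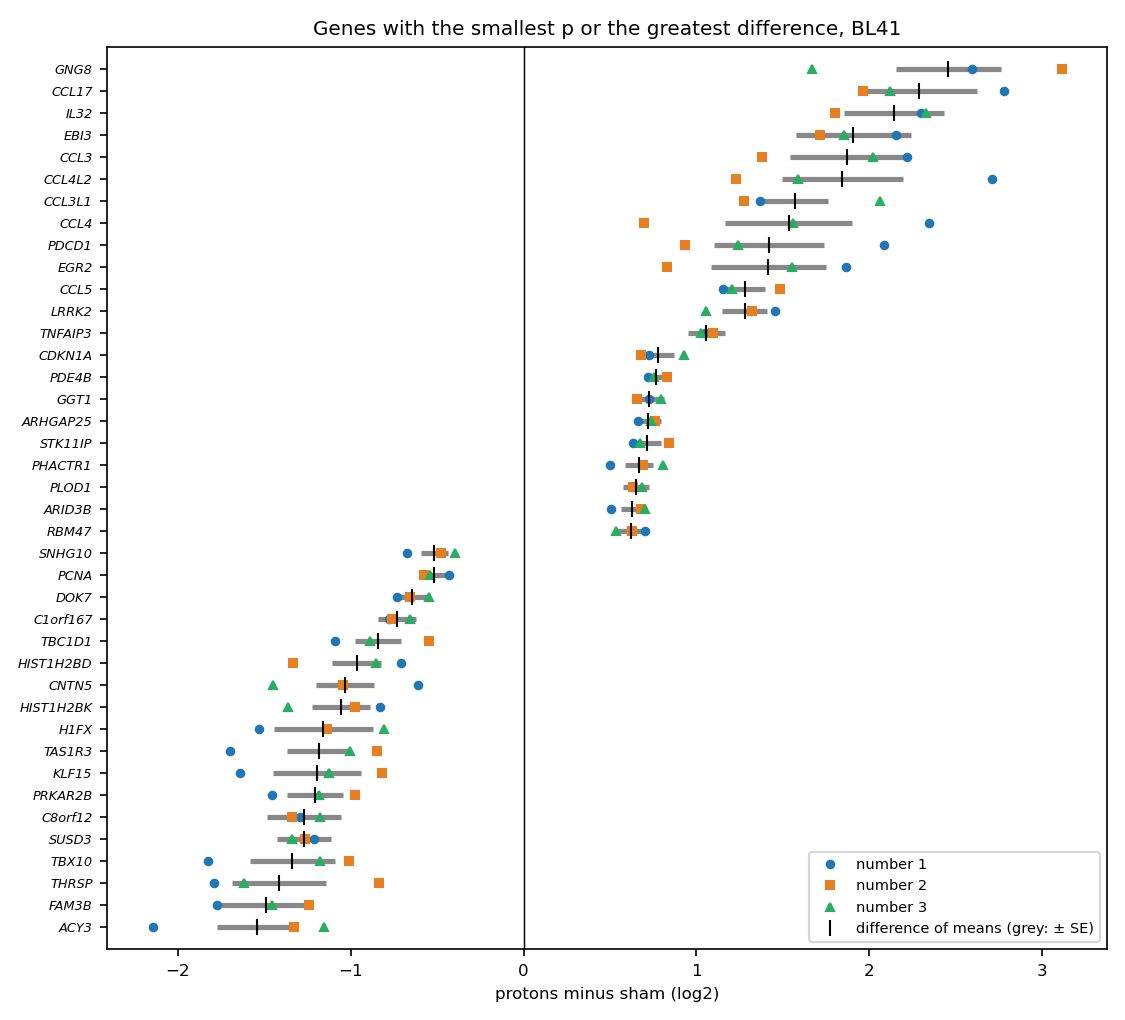
Difference of proton and sham libraries (log2, horizontal axis) within each replicate number (points) and between the group means (tick, grey bar ± standard error) for the genes with the smallest p or the greatest difference. GNG8 is at the top with 2.46 and ACY3 at the bottom with −1.54. Every gene has all 3 points on 1 side of 0 because this was a condition of the choice.

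Chemokine and cytokine genes held the most calls beyond 1. Of 30 measured members 11 rose, 1 fell and 18 did not pass, and after rescaling 10 rose and 1 fell. The list's median lay 0.07 above that of all genes, so that these rises concerned single members rather than the list as a whole. Without a sham or an X-ray library 9 to 11 members rose, and without proton library 1, 2 or 3 the counts were 1, 0 and 0. CCL17, a ligand of the receptor CCR4 on T cells, stood at −1.67, −1.26 and −1.68 in sham and at 1.11, 0.71 and 0.44 after protons (2.29 ± 0.34, limma adjusted p = 0.0167). CCL22, the other CCR4 ligand, was at −0.54, −0.89 and −1.17 in sham and at 0.52, 0.42 and 0.27 after protons, a rise of 1.27 ± 0.19. In both genes every proton value lay above every sham value. CCL5, a chemokine that draws T cells, was the tightest, at −0.95, −1.04 and −0.96 in sham and at 0.20, 0.45 and 0.25 after protons (1.28 ± 0.12, limma adjusted p = 0.00946). CCL3 and CCL4, chemokines made by activated B cells, rose by 1.87 ± 0.33 and 1.53 ± 0.37. Their near-identical copies CCL3L1 (1.57 ± 0.19), CCL3L3 (0.83 ± 0.12) and CCL4L2 (1.84 ± 0.35) rose too, and how reads were shared among the copies is not stated. These 5 genes are therefore not independent and their single values are uncertain. In CCL4 the proton values of 0.99, 0.16 and 0.38 and the sham values of −1.35, −0.54 and −1.18 put the greatest gap in number 1.

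IL32, a proinflammatory cytokine gene, stood at −1.69, −1.31 and −1.92 in sham and at 0.61, 0.49 and 0.41 after protons (2.14 ± 0.29, limma adjusted p = 0.0153). EBI3, a subunit shared by interleukins 27 and 35, was at −1.61, −1.13 and −1.41 in sham and at 0.55, 0.59 and 0.44 after protons (1.91 ± 0.33). Both had sham values all below −1 and proton values all above 0.4. IL16, a CD4 ligand, rose by 0.61 ± 0.12. TNFSF8, which encodes CD30 ligand, went the other way, from 1.04, 0.54 and 0.77 to −0.78, −0.16 and −0.17 (−1.15 ± 0.25, limma adjusted p = 0.0352).

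**Figure D3:**
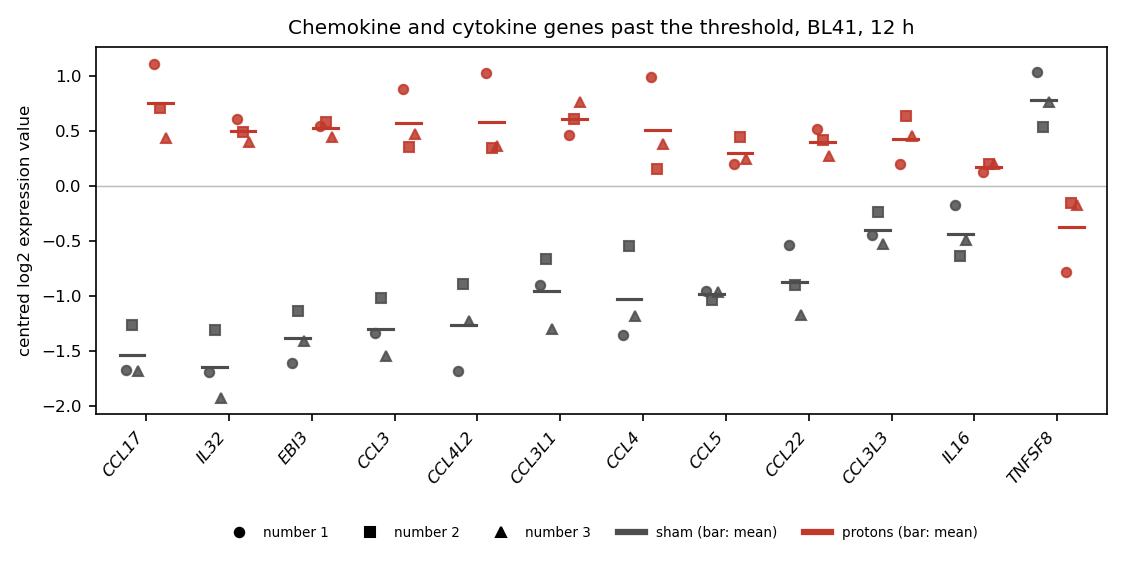
Centred log2 expression value (vertical axis) of the 12 chemokine and cytokine genes past the threshold in each sham (grey) and proton (red) library, with the symbol giving the replicate number and the bar the mean. The sham points of the 11 genes that rose lie below 0 and their proton points above it, while TNFSF8 is reversed.

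The promoters of IL32 and EBI3 are shown because these were the 2 cytokine genes with the greatest rise that have an entry in the RefSeq promoter table (build GRCh38.p14). Each runs from 250 bases before to 50 bases after the start, IL32 at chr16:3065153-3065452 and EBI3 at chr19:4229273-4229572, both on the plus strand. Capitals mark an NF-kB-like motif, GGG and CC separated by 5 free bases, searched on both strands with overlaps allowed.
IL32: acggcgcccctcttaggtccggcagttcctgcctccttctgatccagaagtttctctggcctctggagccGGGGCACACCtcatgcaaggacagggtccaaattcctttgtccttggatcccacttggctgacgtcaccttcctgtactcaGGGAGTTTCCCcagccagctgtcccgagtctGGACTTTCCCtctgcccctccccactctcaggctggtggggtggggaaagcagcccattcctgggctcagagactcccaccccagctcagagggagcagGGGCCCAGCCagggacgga
EBI3: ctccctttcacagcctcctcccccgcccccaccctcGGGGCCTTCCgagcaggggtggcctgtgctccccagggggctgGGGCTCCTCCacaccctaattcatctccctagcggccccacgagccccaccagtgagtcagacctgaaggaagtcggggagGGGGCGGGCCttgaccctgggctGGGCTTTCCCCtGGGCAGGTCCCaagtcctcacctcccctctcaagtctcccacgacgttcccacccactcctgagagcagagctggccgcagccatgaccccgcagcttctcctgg
IL32 held 5 matches and EBI3 7, while the window of CCL3 held 0. The motif is loose. It stood in 72.8% of the 10121 promoters matched to the table, in 73.5% of those of genes that rose and in 5 of the 6 promoters of cytokine genes that rose. For the other motifs the shares in all promoters and in those of genes that rose were 4.23% and 5.15% for the AP-1 motif (TGA and TCA separated by 1 free base), 15.5% and 18.3% for the antioxidant response element (TGAC and GC separated by 3 free bases), and 62.3% and 66.4% for the KLF box (CACCC).

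Some NF-kB, cytokine receptor and interferon-stimulated genes rose, and a link to the cytokine genes was not tested. Of 26 NF-kB subunit, inhibitor and feedback genes 4 rose and 0 fell, and after rescaling 2 rose. The list's median lay 0.05 above that of all genes, at −0.10, 0.19 and 0.07 in numbers 1 to 3. TNFAIP3, which encodes the NF-kB feedback inhibitor A20, stood at −0.69, −0.88 and −0.67 in sham and at 0.36, 0.21 and 0.36 after protons (1.06 ± 0.11, limma adjusted p = 0.00965). The signalling adaptor TRAF1 (0.61 ± 0.10), the inhibitor NFKBIE (0.43 ± 0.09) and the A20-binding protein TNIP2 (0.39 ± 0.09) rose as well. Of 37 cytokine and chemokine receptor genes 5 rose and 1 fell (3 and 1 after rescaling). CCR7, the receptor that guides lymphocytes to lymph nodes, was at −0.40, −0.52 and −0.74 in sham and at 0.28, 0.14 and 0.15 after protons (0.74 ± 0.15). TNFRSF13C, the receptor of the survival factor BAFF, rose by 0.60 ± 0.10, its relative TNFRSF13B by 0.46 ± 0.10, TNFRSF14 by 0.46 ± 0.07, and IL27RA, a subunit of the interleukin 27 receptor, by 0.54 ± 0.09. IL4R, the interleukin 4 receptor chain, fell (−0.54 ± 0.12). Of 31 interferon-stimulated genes 5 rose, among them STAT2 (0.46 ± 0.11), IRF7 (0.43 ± 0.09), SP100 (0.33 ± 0.08) and USP18 (0.29 ± 0.07), 0 fell, and 0 passed after rescaling.

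Antigen presentation and B-cell receptor genes rose in part as well. Of 15 MHC class II genes 5 rose and 0 fell, and after rescaling 3 rose. Their median lay 0.41 above that of all genes, the greatest of the 39 lists other than cell type markers, but at 0.61, 0.13 and 0.32 in numbers 1 to 3. The class II beta chain HLA-DRB1 stood at −0.83, −0.31 and −0.47 in sham and at 0.44, 0.17 and 0.21 after protons (0.81 ± 0.14, limma adjusted p = 0.0227). HLA-DPB1 rose by 0.94 ± 0.21, although its proton value in number 3 (−0.09) was only 0.23 above the sham value of that number (−0.32). HLA-DQA1 and HLA-DQB1 rose by 0.86 ± 0.15 and 0.82 ± 0.14, and HLA-DOA, which restrains peptide loading, by 0.60 ± 0.10. Symbols of 10 of the 15 genes stand on several lines of the table, so their single values are uncertain. In every list 1 line was used per symbol, taken by order of gene identifier and not by its values. The other lines are not reported here. Of 20 MHC class I genes HLA-B rose (0.68 ± 0.14) and 0 fell, a share of 5.0% against the 5.91% of all genes that rose, and after rescaling 0 passed. Symbols of 9 of these 20 genes also stand on several lines, that of HLA-B on 6, so the value of HLA-B is uncertain too.

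Of 32 B-cell receptor signalling genes 7 rose and 0 fell, and after rescaling 1 rose. Several of the 7 are inhibitors. PTPN6, which encodes the phosphatase SHP-1, stood at −0.78, −0.60 and −0.60 in sham and at 0.40, 0.03 and 0.35 after protons (0.92 ± 0.18, limma adjusted p = 0.0296). The inhibitory Fc receptor FCGR2B (0.65 ± 0.12), the lipid phosphatase INPP5D (0.43 ± 0.09) and the inhibitory coreceptor CD72 (0.42 ± 0.09) rose. So did the low-affinity IgE receptor FCER2 (0.86 ± 0.19). The Ras exchange factor RASGRP3 (0.71 ± 0.16) and the paracaspase MALT1 (0.35 ± 0.07), which act in activation, rose too. RASGRP3 differed little in number 1, where sham was at −0.16 and protons at −0.01. MME, the germinal-centre marker CD10, fell (−0.52 ± 0.11). Of 34 B-cell transcription factor genes 0 passed in limma (2 higher and 6 lower at an unadjusted p under 0.05, and 2 lower after rescaling), with BCL6 at −0.27 ± 0.15 and MYC, which drives Burkitt lymphoma, at −0.32 ± 0.11. Of 20 integrin and adhesion genes 4 rose and 1 fell. Those that rose included the lymphocyte homing gene ITGB7 (0.64 ± 0.10), ITGAV (0.52 ± 0.11) and ITGAL (0.48 ± 0.08), and the gene that fell was CNTN5 (−1.03 ± 0.17). After rescaling 2 rose and 1 fell.

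In the damage-response lists the share of members that passed was 7.69% for p53 targets and 10.0% for break repair and checkpoint genes, against 6.82% of all genes. CDKN1A stood at −0.52, −0.61 and −0.64 in sham and at 0.20, 0.07 and 0.29 after protons, a rise of 0.78 ± 0.09 (limma adjusted p = 0.0129), with all proton values above all sham values. Of the other 25 p53 target genes measured, the tetraspanin gene CD82 rose (0.40 ± 0.09), 0 fell and 24 did not pass. After rescaling 1 p53 target rose and 0 fell. MDM2, which encodes the ligase that degrades p53, was at −0.02, −0.06 and 0.37 in sham and at 0.01, 0.02 and 0.09 after protons (−0.06 ± 0.16, limma adjusted p = 0.849), with overlapping groups. The proapoptotic p53 target BBC3 was at −0.54 ± 0.18 and did not pass (limma adjusted p = 0.0883), its sham values of 0.51, 0.22 and 0.24 lying above the proton values of −0.41, −0.08 and −0.18. The p53 list's median relative to all genes was −0.11.

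Of 40 double-strand break repair and checkpoint genes 4 rose and 0 fell, and after rescaling 1 rose. They were RAD50 of the end-binding MRN complex (0.45 ± 0.09), the adaptor MDC1 at marked breaks (0.42 ± 0.10), the checkpoint kinase CHEK2 (0.34 ± 0.09) and PALB2, which joins BRCA1 and BRCA2 (0.28 ± 0.07). RAD50 stood at −0.21, −0.42 and −0.17 in sham and at 0.23, 0.14 and 0.21 after protons. The symbol MDC1 stands on 8 lines of the table, so its single value is uncertain. Of 32 BCL2 family and caspase genes CASP8 (0.36 ± 0.09) and CASP9 (0.28 ± 0.07) rose and 0 fell, a share of 6.25% against the 5.91% of all genes that rose, and after rescaling 0 passed.

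Some histone and replication genes fell after protons. Of 17 clustered histone genes 5 fell, 0 rose and 12 did not pass, and all 17 lay below the median of all genes. The list's median relative to all genes was −0.555, the lowest of the 39 lists, with −0.59, −0.36 and −0.47 in numbers 1 to 3. After rescaling 6 fell. HIST1H2BK, a histone H2B gene, stood at 0.61, 0.65 and 1.04 in sham and at −0.22, −0.32 and −0.32 after protons (−1.06 ± 0.17, limma adjusted p = 0.0185). HIST1H2BD was at 0.39, 0.77 and 0.57 in sham and at −0.32, −0.56 and −0.28 after protons (−0.96 ± 0.14). The groups were well apart in both genes. HIST1H2BC (−0.76 ± 0.17), HIST1H3D (−0.65 ± 0.14) and HIST2H2AC (−0.65 ± 0.12) fell too. Histone genes have near-identical copies, so single values are uncertain, and the sources used here do not say whether the libraries captured transcripts without a poly(A) tail.

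The promoters of HIST1H2BK and HIST1H2BD are shown because these 2 histone genes fell most. They are listed by RefSeq as H2BC12 (chr6:27146809-27147108, minus strand) and H2BC5 (chr6:26157871-26158170, plus strand), build GRCh38.p14. Capitals mark CCAAT, the box bound by NF-Y, on either strand.
HIST1H2BK: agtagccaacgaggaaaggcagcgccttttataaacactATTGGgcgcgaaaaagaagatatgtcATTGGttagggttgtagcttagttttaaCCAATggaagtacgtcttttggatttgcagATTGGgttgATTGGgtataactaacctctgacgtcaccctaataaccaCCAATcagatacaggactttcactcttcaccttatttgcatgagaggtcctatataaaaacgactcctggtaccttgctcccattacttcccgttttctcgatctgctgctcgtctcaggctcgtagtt
HIST1H2BD: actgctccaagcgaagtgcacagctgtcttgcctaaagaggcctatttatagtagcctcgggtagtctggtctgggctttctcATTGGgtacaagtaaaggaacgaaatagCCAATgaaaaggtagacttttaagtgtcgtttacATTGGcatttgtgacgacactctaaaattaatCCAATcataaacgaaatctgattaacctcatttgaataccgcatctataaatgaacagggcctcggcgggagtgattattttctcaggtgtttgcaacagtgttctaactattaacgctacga
HIST1H2BK held 6 boxes and HIST1H2BD 4. All 5 promoters of the histone genes that fell held at least 1 box, against 37.9% of all 10121 promoters and 38.8% of those of genes that fell and of genes that rose. CCAAT boxes are a known feature of histone H2B promoters.

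Of 42 DNA replication and G1/S genes 7 fell and 0 rose, 39 lay at or below the median of all genes, and after rescaling 8 fell. The list's median relative to all genes was −0.287 and nearly the same in the 3 numbers (−0.25, −0.27 and −0.28). PCNA, the replication clamp, stood at 0.29, 0.41 and 0.33 in sham and at −0.15, −0.16 and −0.22 after protons (−0.52 ± 0.07, limma adjusted p = 0.0167). SLBP was at 0.20, 0.38 and 0.33 in sham and at −0.05, −0.04 and −0.03 after protons (−0.34 ± 0.07). The proton values of SLBP were close together and lay below every sham value. The nucleotide-salvage enzyme TK1 (−0.47 ± 0.11), the helicase genes GINS2 (−0.41 ± 0.07) and MCM7 (−0.36 ± 0.07), and UHRF1, which keeps DNA methylation through replication (−0.43 ± 0.10), fell as well. Of 35 mitosis and G2/M genes 0 passed in limma, as reported or rescaled, with 1 higher and 0 lower at an unadjusted p under 0.05. Their median relative to all genes was −0.11.

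**Figure D4:**
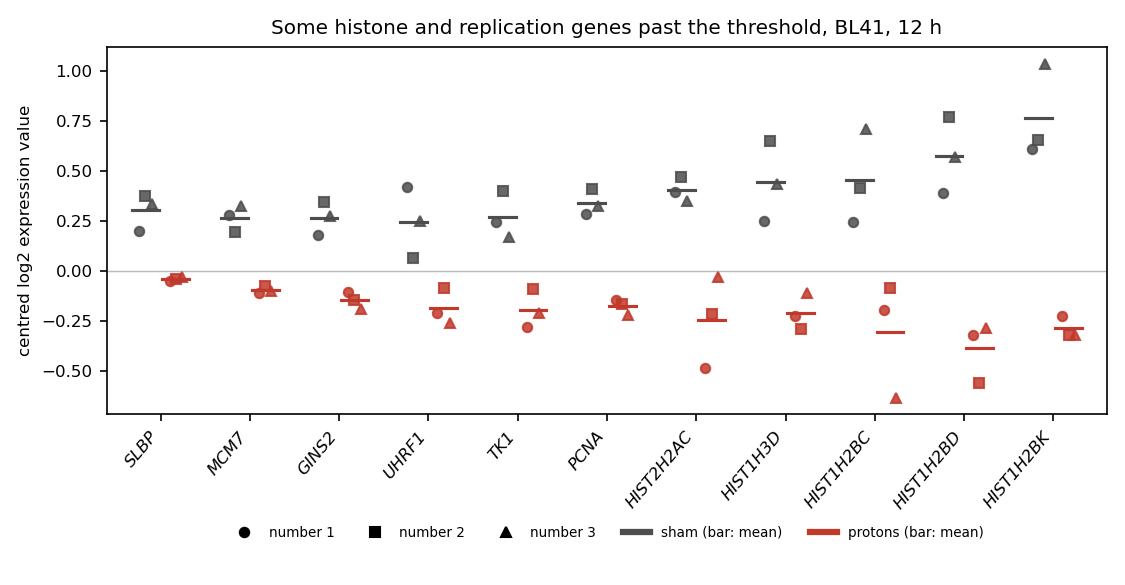
Centred log2 expression value (vertical axis) of 11 histone and replication genes past the threshold in each sham (grey) and proton (red) library, with the symbol giving the replicate number and the bar the mean. All sham points lie above 0 and all proton points below it, with the widest gap at HIST1H2BK.

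Some lysosome and proteasome genes rose after protons, all of them by less than 0.8. Of 50 lysosome and V-ATPase genes 14 rose and 0 fell. Their median lay 0.16 above that of all genes (0.23, 0.10 and 0.13 in numbers 1 to 3), and after rescaling 2 rose. CTSD, the acid protease cathepsin D, stood at −0.74, −0.46 and −0.56 in sham and at 0.36, 0.17 and 0.07 after protons (0.79 ± 0.14, limma adjusted p = 0.0227). MCOLN1, the lysosomal calcium channel, rose by 0.67 ± 0.11, the proton-pump subunit ATP6V0A1 by 0.66 ± 0.14 and the sulfatase gene IDS by 0.63 ± 0.16. Of 33 autophagy genes 6 rose and 0 fell, among them GABARAPL1, a protein of the autophagosome membrane (0.51 ± 0.11), and ATG7, the enzyme that starts its conjugation (0.47 ± 0.10). After rescaling 0 autophagy genes passed.

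Of 45 proteasome genes 7 rose and 0 fell, led by PSMD2 (0.57 ± 0.12), PSMC4 (0.51 ± 0.12), PSMC2 (0.51 ± 0.13) and PSMD1 (0.51 ± 0.12), all subunits of the regulatory cap. The list was uneven across the numbers. Relative to all genes its median was 0.43 in number 1, −0.01 in number 2 and 0.09 in number 3, and after rescaling 0 passed. Heat-shock chaperone genes were likewise highest in number 1, at 0.34, 0.09 and −0.04. Of these 35 genes the cochaperone BAG3 (0.77 ± 0.12) and HSPA4L (0.44 ± 0.08) rose and 0 fell, and after rescaling 1 rose. The share that rose as deposited was 5.71%, against 5.91% of all genes. Of 31 integrated stress and unfolded protein response genes 0 passed in limma, with 7 higher and 6 lower at an unadjusted p under 0.05 and 1 lower after rescaling.

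Among 31 NRF2 and antioxidant genes there were 4 rises and 0 falls, and after rescaling 1 rise. HMOX1, the gene of haem oxygenase, which breaks down haem, stood at −0.95, −0.83 and −1.21 in sham and at 0.46, 0.27 and 0.29 after protons (1.34 ± 0.16, limma adjusted p = 0.0129). The other 3 lay far below it, namely both subunits of the enzyme that limits glutathione synthesis, GCLM (0.40 ± 0.10) and GCLC (0.36 ± 0.07), and PGD of the pentose phosphate pathway (0.35 ± 0.07). Of 28 immediate early and MAPK feedback genes 6 rose and 0 fell, and after rescaling 1 rose. EGR2, a transcription factor induced by antigen receptor signals, was at −1.17, −0.81 and −1.02 in sham and at 0.70, 0.02 and 0.53 after protons (1.42 ± 0.33, limma adjusted p = 0.0411). DUSP5, a phosphatase that switches off ERK, was tighter, at −0.95, −0.76 and −0.85 in sham and at 0.54, 0.16 and 0.24 after protons (1.16 ± 0.17). The mRNA-decay factors ZFP36L1 (0.58 ± 0.13) and ZFP36 (0.33 ± 0.07), DUSP2 (0.40 ± 0.10) and the AP-1 subunit FOSL2 (0.36 ± 0.09) rose. FOS (−0.04 ± 0.17) and JUN (0.17 ± 0.10) did not pass.

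Signalling and channel genes moved both ways. Of 29 cyclic AMP pathway genes PDE4B, the adenylate cyclase ADCY7 (0.57 ± 0.11), the cyclic AMP-responsive factor CREM (0.54 ± 0.11) and the kinase anchor AKAP10 (0.26 ± 0.06) rose. PRKAR2B, a regulatory subunit of protein kinase A, fell from 0.86, 0.71 and 0.87 in sham to −0.59, −0.27 and −0.32 after protons (−1.21 ± 0.16, limma adjusted p = 0.0153). After rescaling 1 rose and 2 fell. Of 29 G protein and regulator genes GNG8, RGS1, a brake on chemokine receptors (0.96 ± 0.23), and GNA12 (0.43 ± 0.07) rose, and GNB1L fell (−0.41 ± 0.10). After rescaling 1 rose and 2 fell. Of 17 potassium channel genes 1 rose and 2 fell, the latter being KCNQ1 (−1.03 ± 0.18) and KCNH2 (−0.85 ± 0.17). After rescaling 0 rose and 2 fell. KCNQ1 stood at 0.95, 0.60 and 0.42 in sham and at −0.55, −0.38 and −0.18 after protons. Of 12 KLF and SP factor genes KLF15 fell (−1.19 ± 0.26) and 0 rose, as after rescaling. The shares called in either direction were 17.2% for cyclic AMP, 13.8% for G protein and 17.6% for potassium channel genes. For KLF and SP genes the share was 8.33%, against 6.82% of all genes. The share of potassium channel genes that rose was 5.88%, near the 5.91% of all genes.

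Among genes of protein synthesis, the cytoplasmic ribosomal protein list lay below other genes although no single member passed. Of 76 cytoplasmic ribosomal protein genes 0 passed in limma, as reported or rescaled, with 0 higher and 11 lower at an unadjusted p under 0.05. Yet 73 of the 76 lay at or below the median of all genes, and their median relative to all genes was −0.283, with −0.23, −0.40 and −0.16 in numbers 1 to 3. RPS2, a small-subunit protein gene, was at 0.15, 0.24 and 0.14 in sham and at −0.17, −0.02 and −0.12 after protons, which differed by −0.28 ± 0.08 (limma adjusted p = 0.0728). RPS2 was among the lowest of the list and was picked after its values were seen. Ribosomal protein genes have many processed copies, so single values are uncertain. Mitochondrial ribosomal protein genes lay elsewhere, 0.01 above all genes, and of 75 of them MRPL24 (0.45 ± 0.11), MRPL42 (0.32 ± 0.07) and MRPS10 (0.26 ± 0.07) rose and 0 fell. Of 51 ribosome biogenesis genes WDR12 (0.44 ± 0.10) and NAT10 (0.38 ± 0.09) rose and 0 fell, and the list's median relative to all genes was 0.28, 0.09 and −0.10 in numbers 1 to 3. Of 20 aminoacyl-tRNA synthetase genes WARS, also an interferon-induced gene, rose (0.50 ± 0.11). Of 45 translation factor genes 0 passed in limma, with 6 higher and 4 lower at an unadjusted p under 0.05. After rescaling 0 genes of these last 4 lists passed. On the values as deposited 4.0% of mitochondrial ribosomal, 3.92% of ribosome biogenesis and 5.0% of aminoacyl-tRNA synthetase genes rose. All 3 shares lay below the 5.91% of all genes.

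Metabolic and nuclear lists held few calls. Of 76 respiratory chain and ATP synthase genes 3 rose and 0 fell, among them SDHC (0.40 ± 0.06) and NDUFA9 (0.39 ± 0.10). Of 13 mitochondrially encoded genes 0 passed in limma, and 0 had an unadjusted p under 0.05. Of 27 glycolysis genes the glucose transporter SLC2A3 rose (0.49 ± 0.12), and of 33 sterol and fatty acid synthesis genes NSDHL rose (0.32 ± 0.07) and THRSP fell. Of 49 nuclear pore and transport genes the importins IPO13 (0.61 ± 0.15) and KPNA1 (0.34 ± 0.08) rose. Of 67 chromatin remodeller and histone modifier genes KDM2A (0.54 ± 0.11), KAT2A (0.48 ± 0.10) and SMARCA2 (0.36 ± 0.08) rose. Of 56 spliceosome genes SRSF7 fell (−0.36 ± 0.09), and of 19 snoRNA host and long noncoding RNA genes SNHG10 fell (−0.52 ± 0.08). After rescaling 0 genes passed in the respiratory chain, mitochondrially encoded, glycolysis and nuclear pore lists. There 1 sterol and fatty acid synthesis gene, 2 spliceosome genes and 1 snoRNA host or long noncoding RNA gene fell with 0 rises, and 1 chromatin gene rose and 1 fell. In each of these 8 lists, on the values as deposited, the share of calls in either direction was below the 6.82% of all genes.

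**Figure D5:**
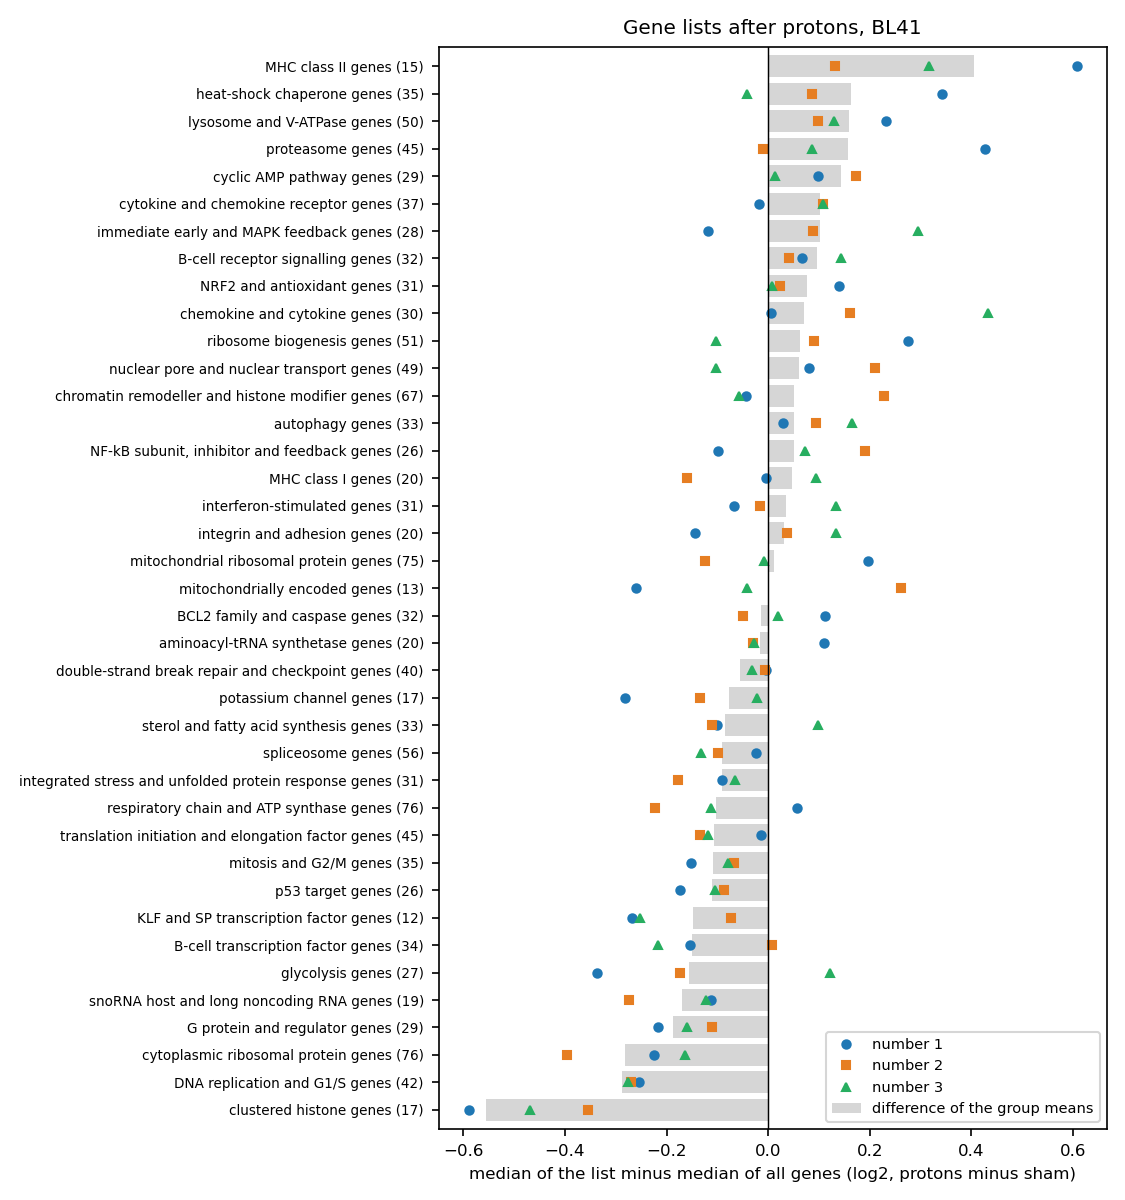
Median difference of each gene list minus the median of all genes (log2, horizontal axis), for the group means (grey bars) and within each replicate number (points), with the number of measured genes in parentheses. MHC class II genes lie highest at 0.41 and clustered histone genes lowest at −0.555, and in the proteasome list number 1 stands apart at 0.43.

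By gene type, 822 of the 891 genes that rose and 116 of the 136 that fell were protein coding, against 12038 of all 15069. Transcription regulators made up 89 of the genes that rose and 13 of those that fell, of 1657 measured. Antisense genes made up 18 and 8 of 851, and pseudogenes 33 and 7 of 1457. Over all genes 5.91% rose and 0.903% fell, and the shares of transcription regulators lay near these. The sources used here do not say whether strand was kept, so reads of antisense genes cannot be told from those of their partners.

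Protons were also set against X-rays directly, in the same model. In limma 0 genes passed (0.0%; lowest adjusted p 0.339), while the unadjusted p was under 0.05 in 1779 genes. The blocked model gave 0 and 790. Among the 1027 genes called against sham, 222 (21.6%) had an unadjusted p under 0.05 against X-rays, and among all genes 11.8%. The proton libraries enter both comparisons. Protons minus X-rays was 0.12 ± 0.30 in GNG8, −0.18 ± 0.29 in IL32, 0.65 ± 0.34 in CCL17, −0.06 ± 0.09 in CDKN1A, 0.01 ± 0.16 in HMOX1, 0.02 ± 0.07 in PCNA and −0.12 ± 0.17 in HIST1H2BK. Of the named genes past the threshold against sham, 24 had an unadjusted p under 0.05 against X-rays, 16 above X-rays and 8 below. Those above included GCLC (0.33 ± 0.07), KPNA1 (0.31 ± 0.08), NFKBIE (0.31 ± 0.09) and MRPL42 (0.21 ± 0.07). Those below included C1orf167 (−0.35 ± 0.11), DOK7 (−0.30 ± 0.10), SUSD3 (−0.43 ± 0.16), THRSP (−0.65 ± 0.27), KLF15 (−0.63 ± 0.26) and H1FX (−0.66 ± 0.29). These examples were picked after their values were seen. A p that misses the threshold does not show that the beams act alike.

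The mouse line J3D, given the same doses and normalized in a table of its own, is set beside BL41 by gene symbol. Of the 600 genes that rose in BL41 and were found in J3D, 344 lay above 0 there (57.3%), against 56.9% of all 12132 J3D genes compared. Of the 56 that fell in BL41, 21 lay below 0 in J3D (37.5%), against 43.0% of all. The median J3D difference was 0.0413 for the BL41 genes that rose, 0.0949 for those that fell and 0.0461 for all. These shares are near the background. Of the 82 named genes with a call in BL41 and a J3D value, 45 had the same sign, and 0 passed in limma in J3D. How many of all J3D genes passed is not given here, so this 0 cannot be read as a trait of these genes.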

How the data were processed

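RNA of 18 samples was sequenced, and the 9 BL41 libraries (3 sham, 3 X-ray, 3 proton) are used here, with the 9 J3D libraries set beside them. Per the submitters' processing notes, TopHat2 and the builds hg19 and mm10 were used; counting, annotation and normalization were not given in the sources used here. Values deposited by the authors are on a log scale around a baseline and were read as log2, an assumption, since the base is not stated. A different base would scale all differences alike. Authors' averaged columns were not used.

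Each gene had been centred, per number, on the average of 4 libraries, and 3 of those enter here. Where a pair of values was tied at the lowest (within 1e-06; 319, 437 and 382 genes in numbers 1 to 3), the fourth was implied at that same value in 66.8, 63.6 and 65.7% of genes, and below it in 0. Because a mean per number had thus been removed, the unblocked model assumes 6 residual degrees of freedom against 4 in the blocked one and is too liberal, and the centring biases any correlation of same-numbered libraries, so it cannot show whether the numbers pair the samples. What the numbers mark is not in the labels. Depth is unknown, so precision rests on the spread between libraries.

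limma 3.58.1 (R 4.3.3, statmod 1.5.0) was fitted on the values as deposited with a mean per group, trend and robust moderation, and contrasts of protons with sham and with X-rays. A run on simulated data had as its only pass condition that added differences were returned without bias on average. That condition does not check the rate of false calls, which the run recorded but which is not reported here. Tables, promoters and plots used Python 3.11.15, numpy 2.4.6, pandas 2.3.3 and matplotlib 3.10.9. Alternatives were the replicate block, trimmed-mean rescaling (10% trimmed at each end), both together, quantile normalization, the 6 libraries only, no trend or robust moderation, a filter on low values (3 or more libraries above the table's minimum), removal of tied genes, and leaving out each library. The members and lists were chosen with earlier results of these data known. Named genes were those past the threshold with the smallest p (12 each way) or greatest difference (10 each way). Up to 4 members past the threshold were added per list and direction. All of these were required to have 1 sign in all 3 numbers. A fixed set was shown whatever it did (CDKN1A, MDM2, BBC3, MYC, HMOX1, PCNA, FOS, JUN and BCL6 among them). Further list members are named in the text. Some genes that the rule names are not reported here. Motifs were sought in 10121 promoters matched by symbol or a unique synonym. J3D was fitted separately in the same way.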

Additional observations from a re-analysis of the deposited data

Results flagged for a closer look

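In 21 named genes every replicate number moved one way after protons in BL41 and the opposite way in the mouse line J3D. A single direction in BL41 was already required for naming them. The lines were normalized separately, and the difference between them was not tested. In J3D 0 of the 21 passed in limma, and the count over all J3D genes is not given here. Values are protons minus sham on the log2 scale, J3D against BL41.

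Of genes that rose in BL41, 15 lay below 0 in all J3D numbers. Those of stress, feedback and cytokine signalling were HMOX1 (−0.46 against 1.34), TNFAIP3 (−0.36 against 1.06), ZFP36L1 (−0.38 against 0.58), STAT2 (−0.80 against 0.46), HSPA4L (−0.16 against 0.44), IRF7 (−0.55 against 0.43) and SP100 (−0.072 against 0.33). The others were MCOLN1 (−0.22 against 0.67), GABARAPL1 (−0.26 against 0.51), SLC2A3 (−0.79 against 0.49), SDHC (−0.25 against 0.40), CHEK2 (−0.13 against 0.34), CASP9 (−0.16 against 0.28), AKAP10 (−0.15 against 0.26) and MRPS10 (−0.13 against 0.26). Of genes that fell in BL41, 6 lay above 0 in all J3D numbers, the replication genes PCNA (0.30 against −0.52), GINS2 (0.34 against −0.41) and UHRF1 (0.23 against −0.43), with GNB1L (0.36 against −0.41), SRSF7 (0.22 against −0.36) and TBC1D1 (0.13 against −0.84). HMOX1 in J3D stood at −0.996, −0.17 and −0.22 in numbers 1 to 3, and PCNA at 0.61, 0.24 and 0.04. Number 1 was the widest in both.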

How the results depend on the processing

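The count of genes past the threshold after protons (1027) fell to 0 with the replicate block, with the 6 proton and sham libraries only, and with trimmed-mean rescaling and the block together. It was 343 after trimmed-mean rescaling and 533 after quantile normalization (240 higher, 293 lower; 373 shared with the 1027), and between 0 and 710 when 1 library was left out. It stayed within 1.5 times without trend or robust moderation (881) and without genes tied at the lowest value (1162). The filter on low values kept all 15069 genes, so its count of 1027 comes from the same fit and is no check. Protons against X-rays gave 0 genes, 1 after quantile normalization, and 0 to 1 when 1 library was left out. Leaving out 1 library turned the sign of FOS (−0.21 to 0.13, above 0 without sham or proton library 2, against −0.04) and MDM2 (−0.14 to 0.083, above 0 without sham library 3, against −0.06), neither of which passed.

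Of the 127 named genes past the threshold, 66 also passed after trimmed-mean rescaling, 76 after quantile normalization, 0 with the block (blocked adjusted p 0.105 to 0.191) and 2, 4 and 0 without proton library 1, 2 or 3. The fits without 1 library had 5 residual degrees of freedom and the blocked fit had 4, against 6 as reported. Without a sham or an X-ray library, also at 5, 63 to 95 of the named genes passed. The cause of these drops was not tested.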
